A study of Mus musculus with 6 samples.

Results

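The genes described here encode the mitochondrial machinery of fatty acid oxidation, with enzymes of ketone body formation and a pair of kinases that hold back pyruvate oxidation. All 29 listed symbols were found, each as 1 row, among the 24501 genes of the deposited table of normalised read counts, and all 29 had a mean of at least 10 and were tested. Liver RNA came from 6 male C57BL/6J mice that all carried floxed alleles of Gata4. Of these, 3 received an empty AAV8 (Control) and 3 received AAV8-Tbg-Cre (labelled Gata4LKO), in which the Tbg promoter restricts Cre to hepatocytes. Other liver cells of these mice therefore keep Gata4. The virus was given at 8 weeks of age, the mice ate a Western diet for 3 weeks, and they were 11 weeks old and fasted for 6 hours at collection. The protocol text also gives 7 days between injection and euthanasia, which does not match the other times. The comparison asks which liver transcripts differ after hepatocyte delivery of Cre to such mice.

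Long-chain fatty acids enter mitochondria as carnitine esters, and this entry step is the main point of control. Inside, each turn of the oxidation spiral removes an acetyl unit through a dehydrogenase, a hydratase, a second dehydrogenase and a thiolase. Electrons of the opening dehydrogenase step leave through the flavoproteins of the electron transfer chain. In the fasting liver the acetyl units feed ketone body synthesis, and many of these genes are known targets of the fatty acid sensor PPARA.

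The libraries held 33274223 to 37390345 reads. Gata4 itself had normalised counts of 704, 637 and 546 in Control and 867, 848 and 895 in the libraries labelled Gata4LKO, so the count of the whole gene did not show a loss, and the labels alone give the direction of every difference below. The hepatocyte gene Alb took the most reads in each library. Markers of several other liver cell types had higher summed counts in the libraries labelled Gata4LKO, and 4 endothelial markers passed the test. The summed count of 8 endothelial markers was 5427 to 6497 in Control and 8669 to 10971 in the other group, that of 8 stellate cell markers 3755 to 8702 against 9692 to 12134, and that of 8 macrophage markers 2659 to 6228 against 7121 to 15590. The 8 lymphocyte markers summed to 94.3 to 463 against 455 to 677, and 7 cholangiocyte markers to 1131 to 1473 against 966 to 1398. Of 8 hepatocyte markers 1 was lower by the test, and all 8 had negative log2 fold changes (median -0.36, 4 without overlap). Of 8 periportal markers 2 were lower by the test, and all 8 were negative (median -0.49, 5 without overlap), and of 8 pericentral markers 1 was higher and 1 lower. Of 6 adipocyte markers, Lep was not in the table, and Adipoq, Plin1 and Cidea had at most 5.02 counts in any library. Cfd was the 1 called higher, at 20.6 to 51.9 counts in Control and 648 to 3207 in the other group. Fabp4 did not pass, at 95.6 to 119 counts in Control and 158 to 169 in the other group. In whole liver, fewer cells of a type and less RNA per cell cannot be told apart.

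Most of the oxidation genes were modestly higher in the libraries labelled Gata4LKO, and 1 of these differences passed the test. The thiolase subunit gene Hadhb was the member that passed, with a 1.38-fold higher mean. Pdk4 had the largest difference, 3.78-fold, and narrowly missed the threshold. The test was limma on log2(normalised count + 1), adjusted by Benjamini-Hochberg over all 14385 genes with a mean of at least 10. By this test 3.45% of the members were called, beside 2.06% of all genes tested (1.13% higher and 0.932% lower), a share near the background. At an unadjusted p under 0.05, 16 members were higher and 1 was lower, beside 13.1% and 9.32% of all genes. The members' median log2 fold change was 0.24, against -0.01 over all genes tested. Positive values were found for 24 of the 29 members, against 48.5% of all genes. In 17 members (58.6%) every library labelled Gata4LKO lay above every Control library, which held for 15.0% of all genes tested. The opposite order held for 1 member, Pdk2, and for 13.4% of all genes. A further 8 members, all higher, had adjusted p-values between 0.05 and 0.1.

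The count of members past the test depended on the statistical model. DESeq2 on whole reads recovered from the deposited values called 12 members, all higher (41.4% of the members, against 5.99% of all genes in that direction), while edgeR called Hadhb alone (1.13% of all genes in that direction). In the authors' deposited table, 9 members had an adjusted p under 0.05, all higher, which is 31.0% of the members beside 5.98% of all genes. Those 9 were Slc25a20, Slc22a5, Acadm, Hadhb, Eci1, Eci2, Etfdh, Bdh1 and Pdk4. By limma 9 members had an adjusted p under 0.1, and all 9 are among those of the authors' deposited table. Other scalings of the same limma fit called 6 members with equal library sums (2.28% of all genes higher) and 4 with quantile normalisation (1.07%). It called 2 without the filter on low counts (0.771%) and 2 with robust variance (1.26%). When the limma fit was adjusted for a score of 38 markers of other liver cells, the members' median log2 fold change was 0.27. In that fit 0 of 29 members and 6 genes in all passed, beside 1 member and 296 genes in the limma fit without the score. At an unadjusted p under 0.05, 6 members were higher and 0 lower, and the share of all genes was not counted there. The score was higher in every library labelled Gata4LKO (0.31 to 0.55) than in any Control library (-0.83 to 0.08). It thus went with the group, and this fit cannot separate score and group.

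**Figure D1:**
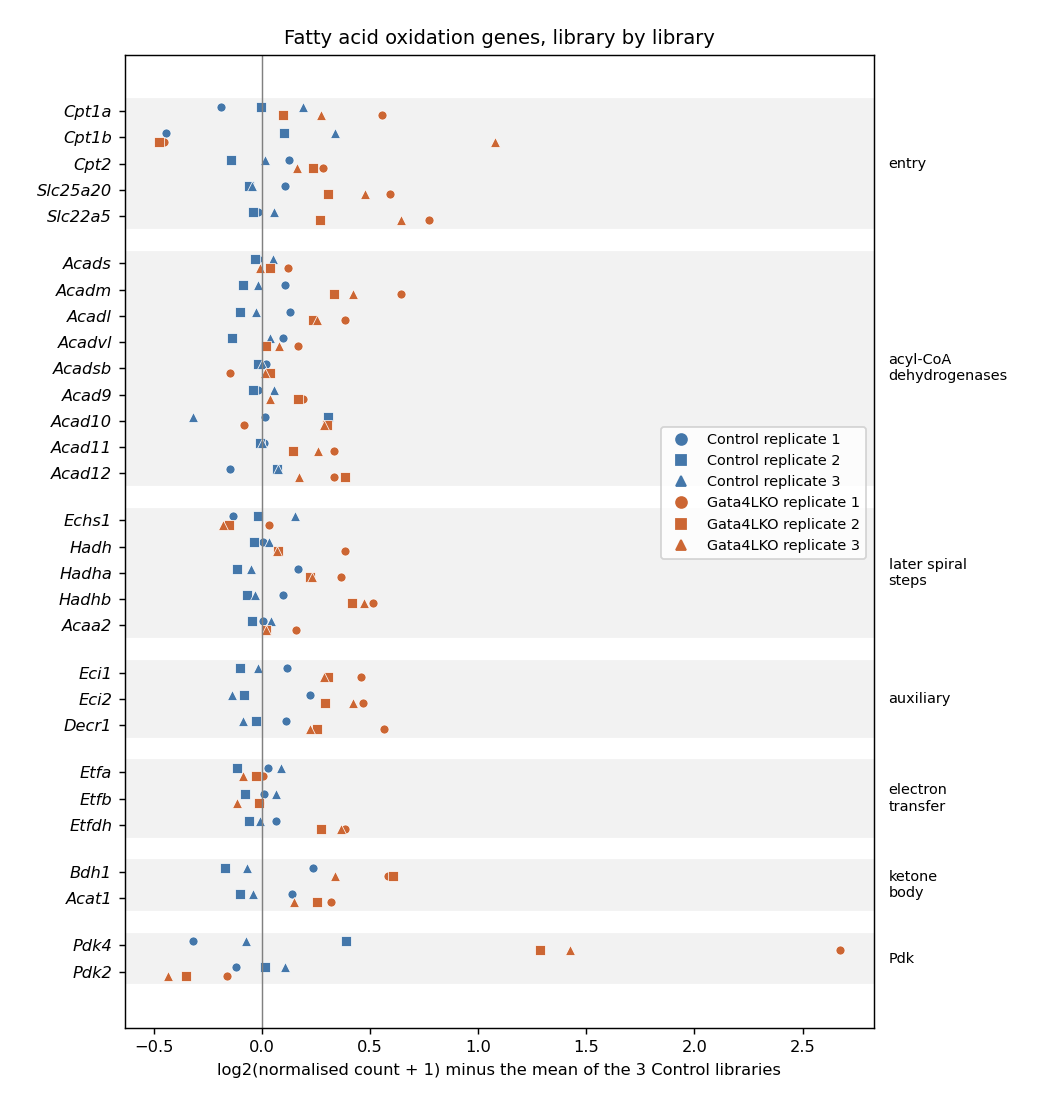
Values of the 29 genes in each library, as log2(normalised count + 1) minus the mean of the 3 Control libraries, grouped by step of the pathway. In 17 genes the 3 libraries labelled Gata4LKO lie above all 3 Control libraries, in Pdk2 they lie below, and Gata4LKO replicate 1 is the highest library for 20 of the 29 genes.

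Libraries contributed unequally. Gata4LKO replicate 1 was the highest of all 6 libraries for 20 members, and Control replicate 2 was the lowest for 18. Relative to the Control mean, the average over the members was 0.36 in Gata4LKO replicate 1, 0.19 in replicate 2 and 0.25 in replicate 3, while the Control libraries stood at 0.01, -0.03 and 0.01 (log2 scale). Without Cpt1b, which had few counts, the averages of the libraries labelled Gata4LKO were 0.39, 0.22 and 0.22. Without Gata4LKO replicate 1 the members' median log2 fold change was 0.23 and 0 members passed by limma. In that fit 143 genes in all passed, beside 296 with all libraries. At an unadjusted p under 0.05, 12 members were higher and 1 lower in that fit, where the share of all genes was not counted. The limma count of members that passed was also 0 without Control replicate 1, Control replicate 3 or Gata4LKO replicate 3. Genes in all that passed were 143, 56 and 27 in those fits. Gata4LKO replicate 1 also had the highest score of non-hepatocyte markers, 0.55, and Control replicate 3 the lowest, -0.83. Control replicate 2, the lowest library for 18 members, had the highest score of the Control libraries, 0.08. The part of these markers in the differences between single libraries was not tested.

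Among the entry genes, the carnitine carriers had the largest log2 fold changes. Slc22a5 encodes the plasma membrane carnitine transporter OCTN2. It had normalised counts of 910.4, 895 and 958 in Control and 1574, 1108 and 1439 in the libraries labelled Gata4LKO. These groups did not overlap, the lowest of the second group being replicate 2, and the difference in Slc22a5 was 0.56 in log2 units (SE 0.13, adjusted p = 0.0694 by limma). Without Gata4LKO replicate 2 it was the 1 member that passed. The Slc22a5 transcript shares 831 bases at 98.3% identity with the neighbouring family member Slc22a21, which had a mean of 19.9 normalised counts, so reads of this stretch cannot be assigned with certainty.

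Slc25a20 encodes the carnitine-acylcarnitine carrier of the inner mitochondrial membrane (chromosome 9, 108662088 to 108684641, plus strand, mm10). Its counts were 3801, 3383 and 3418 in Control and 5316, 4364 and 4913 in the libraries labelled Gata4LKO. All 3 of the latter were higher, with a log2 fold change of 0.46 (SE 0.09, limma adjusted p = 0.0535, DESeq2 adjusted p = 0.00117). It also passed with equal library sums (0.0417), with quantile normalisation (0.0408) and with robust variance (0.0497).

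The acyltransferases on either side of that carrier had smaller log2 fold changes. Cpt1a, the liver form of the outer membrane carnitine palmitoyltransferase and the target of malonyl-CoA, had 19945, 22716 and 25964 counts in Control and 33399, 24333 and 27463 in the libraries labelled Gata4LKO. These groups overlapped, since Control replicate 3 exceeded Gata4LKO replicate 2. Its log2 fold change of 0.31 had a 95% confidence interval from -0.03 to 0.65 (limma adjusted p = 0.260). Cpt2, the inner membrane enzyme, had 6086, 5043 and 5629 against 6782, 6553 and 6227, without overlap, and a log2 fold change of 0.23 (SE 0.09, adjusted p = 0.176). Cpt1b, the muscle form, was close to the detection limit with 8.03 to 25.5 normalised counts in all libraries. Of 6 skeletal muscle markers, 3 were in the table. Tnnt3 and Tnni2 had at most 3 reads in any library. Mylpf had 29.8, 14.5 and 26.2 counts in Control and 14.3, 15.1 and 16.1 in the other group. Per kilobase of exon, Mylpf had 22.1 in Control and 14.3 in the other group, against 3.52 and 4.12 for Cpt1b. Cpt1b shares 81.4% of its exon bases with an overlapping protein-coding gene on the same strand (Gm44502), and its log2 fold change of 0.05 (95% interval from -1.14 to 1.24) changed sign between settings.

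The acyl-CoA dehydrogenases carry out the opening step of each turn and divide the substrates by chain length. Acadm, the medium-chain enzyme, had 14034, 12287 and 12875 counts in Control and 20407, 16452 and 17493 in the libraries labelled Gata4LKO. Its means were 13065 ± 889 and 18118 ± 2050 (SD, n = 3 each), a 1.39-fold difference without overlap (log2 fold change 0.47, SE 0.10, limma adjusted p = 0.0639). Acadm shares 469 bases at 95.3% identity with the processed pseudogene Gm5131, whose counts were 585, 457 and 490.4 in Control and 792, 615 and 666 in the other group. Acadl, the long-chain enzyme of rodent liver, had 8532, 7264 and 7658 against 10198, 9188 and 9321, again without overlap (log2 fold change 0.29, SE 0.09, adjusted p = 0.106).

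The enzymes for the shortest and for the longest chains had smaller log2 fold changes. Acads, the short-chain enzyme, had 5835, 5784 and 6133 counts in Control and 6437, 6071 and 5884 in the libraries labelled Gata4LKO, which overlapped (log2 fold change 0.05, 95% interval from -0.11 to 0.21). Acadvl, the very-long-chain enzyme of the inner membrane, whose exons share 42.9% of their bases with Dvl2 on the opposite strand, had 14861, 12625 and 14219 against 15550, 14054 and 14652, also overlapping (0.09, from -0.12 to 0.29). Within each library, the log2 ratio of Acadm to Acadvl was -0.08, -0.04 and -0.14 in Control and 0.39, 0.23 and 0.26 in the libraries labelled Gata4LKO. These groups did not overlap, and the mean ratio differed by 0.38 (exact two-sided permutation p = 0.1, the smallest that 3 against 3 libraries can give). This pair and 4 others were chosen after the values had been seen. Adjusted over the 5 pairs by Benjamini-Hochberg and rounded to a single digit, 4 of the p-values were 0.1. That of Slc25a20 over Cpt2 was 0.2. The rounding hides small rises over the unadjusted p-values.

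The remaining dehydrogenases are less central to oxidation of common fats. Acad11, which prefers very long chains, had the tightest Control values of all members, 16072, 15873 and 16011, a coefficient of variation of 0.638%. In the other group it had 20134, 17644 and 19127 without overlap (log2 fold change 0.24, SE 0.08, limma adjusted p = 0.127, DESeq2 adjusted p = 0.0366). Acadsb, which acts on branched short chains from isoleucine, had log2 fold change -0.03 (95% interval from -0.20 to 0.14), and Acad9, also an assembly factor of respiratory complex I, had 0.13 (from -0.05 to 0.31). Acad10 and Acad12 lie on the same strand of chromosome 5 with start sites 41576 bases apart, and share 1614 bases at 95.3% identity. Acad12 had 285, 331 and 332 counts against 397, 412 and 355 without overlap (log2 fold change 0.30, adjusted p = 0.173). Acad10 had 1100 to 1697 in Control and 1295 to 1690 in the other group, which overlapped, and since reads of the pair may be split between the copies both values are uncertain.

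The 1 call fell in the later steps of the spiral. Hadha and Hadhb encode the alpha and beta subunits of the mitochondrial trifunctional protein, which carries out the last 3 reactions on long chains. Hadhb (ENSMUSG00000059447, chromosome 5, 30155248 to 30184593, plus strand, mm10) had 782, 698 and 716 counts in Control and 1044, 975 and 1016 in the libraries labelled Gata4LKO. These groups were clearly apart, with means of 732 ± 44.0 and 1012 ± 35.1 (SD, n = 3), and Hadhb rose with a log2 fold change of 0.47 (SE 0.08, limma adjusted p = 0.0335). The log2 fold change was 0.43 to 0.52 when any single library was left out. The call was lost without any library except Control replicate 2. The limma adjusted p-values then ran from 0.0539 without Control replicate 1 to 0.134 without Gata4LKO replicate 3. In those fits 27 to 143 genes in all passed, beside 296 with all libraries and 792 without Control replicate 2. The Hadhb call was also lost without the variance trend (adjusted p = 0.0823) and with the marker score as covariate (adjusted p = 0.339). The log2 fold changes there were 0.47 and 0.49, and 25 and 6 genes in all passed. The score itself separated the groups, so the fit with it cannot tell score and group apart.

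Hadha (30118304 to 30155162, minus strand) had 15660, 12880 and 13471 counts in Control and 17986, 16306 and 16402 in the libraries labelled Gata4LKO. These groups did not overlap, but the difference of 0.27 (SE 0.10) missed the threshold (limma adjusted p = 0.151). The log2 ratio of Hadha to Hadhb within a library was 4.32, 4.20 and 4.23 in Control and 4.10, 4.06 and 4.01 in the other group, a difference of -0.19 without overlap (exact permutation p = 0.1). Per kilobase of exon, Hadha stood 14.4-fold above Hadhb in Control, and 9.75-fold by the length of the principal transcript. Hadhb has a processed pseudogene on chromosome 2, Gm13910, that matches 1428 bases of its transcript at 99.8% identity and had a mean of 10.9 normalised counts. How the counting treated reads that fit both is not given in the sources used here, so the level of Hadhb, and its ratio to Hadha, are uncertain.

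The GENCODE start sites of Hadha and Hadhb lie 86 bases apart on opposite strands. The 85 bases between them, chr5:30155163-30155247 on the plus strand (GRCm38, RefSeq), are shown because the only called member and its partner share them, with each of the 9 CG dinucleotides in capitals.
Hadha-Hadhb: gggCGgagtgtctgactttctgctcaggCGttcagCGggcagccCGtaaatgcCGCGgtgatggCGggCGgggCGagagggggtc
Neither of the motifs searched (described with the promoters further on) was found in the promoter windows of Hadha or Hadhb. The RefSeq start site of the Hadha window lies 182 bases from the GENCODE start of that gene, and that of Hadhb 5 bases.

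The other genes of the later steps were closer between the groups. Hadh, the short-chain hydroxyacyl-CoA dehydrogenase, had 12642, 12266 and 12863 counts in Control and 16426, 13240 and 13223 in the libraries labelled Gata4LKO. They did not overlap, but replicate 1 alone stood far above the rest (log2 fold change 0.18, limma adjusted p = 0.345). Echs1, the short-chain hydratase, had 6724, 7293 and 8208 against 7552, 6651 and 6530, which overlapped (-0.10, 95% interval from -0.33 to 0.13). Acaa2, the mitochondrial thiolase, had 26963, 26047 and 27642 against 29955, 27240 and 27258, with overlap (0.07, from -0.13 to 0.26). Per kilobase of exon Acaa2 had the highest level of all members, 17733 ± 528 in Control and 18569 ± 1031 in the libraries labelled Gata4LKO.

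The auxiliary enzymes prepare double bonds of unsaturated fatty acids for the spiral, and in all 3 the libraries labelled Gata4LKO lay above Control without overlap, as in 15.0% of all genes. Eci1, an enoyl-CoA isomerase, had 3581, 3078 and 3256 counts in Control and 4538, 4077 and 4026 in the libraries labelled Gata4LKO (log2 fold change 0.35, SE 0.08, limma adjusted p = 0.0721). Eci2, an isomerase found in mitochondria and peroxisomes, had 7797, 6308 and 6071 against 9243, 8178 and 8957 (0.39, SE 0.11, adjusted p = 0.0942). Decr1, the dienoyl-CoA reductase, had 6318, 5742 and 5515 against 8643, 6970 and 6829 (0.35, SE 0.11, adjusted p = 0.119). Of the 3, 0 passed by limma or edgeR, and all 3 had an unadjusted limma p under 0.05. DESeq2, which called 5.99% of all genes higher, called the 3 genes, with Decr1 nearest to the threshold at an adjusted p of 0.0465.

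Of the electron transfer genes, Etfdh alone had groups that did not overlap. Etfa and Etfb encode the subunits of the electron transfer flavoprotein, which takes electrons from the acyl-CoA dehydrogenases, and Etfdh encodes the membrane enzyme that passes them to ubiquinone. Etfdh (chromosome 3, 79603788 to 79629500, minus strand) had 8839, 8109 and 8382 counts in Control and 11009, 10201 and 10865 in the libraries labelled Gata4LKO. These groups were well apart, with a log2 fold change of 0.34 (SE 0.07) that missed the threshold by little (limma adjusted p = 0.0577). Etfa had 8586, 7770 and 8949 against 8452, 8274 and 7922, and Etfb had 1532, 1443 and 1591 against 1513, 1508 and 1406. Both overlapped, with log2 fold changes of -0.04 for each and 95% intervals from -0.22 to 0.14 for Etfa and from -0.21 to 0.12 for Etfb. The log2 ratio of Etfdh to Etfa within a library was 0.04, 0.06 and -0.09 in Control and 0.38, 0.30 and 0.46 in the other group, a difference of 0.38 without overlap (exact permutation p = 0.1). Etfb shares 53.0% of its exon bases with another protein-coding gene annotated on its strand (Gm45233), so reads from those bases cannot be told apart.

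**Figure D2:**
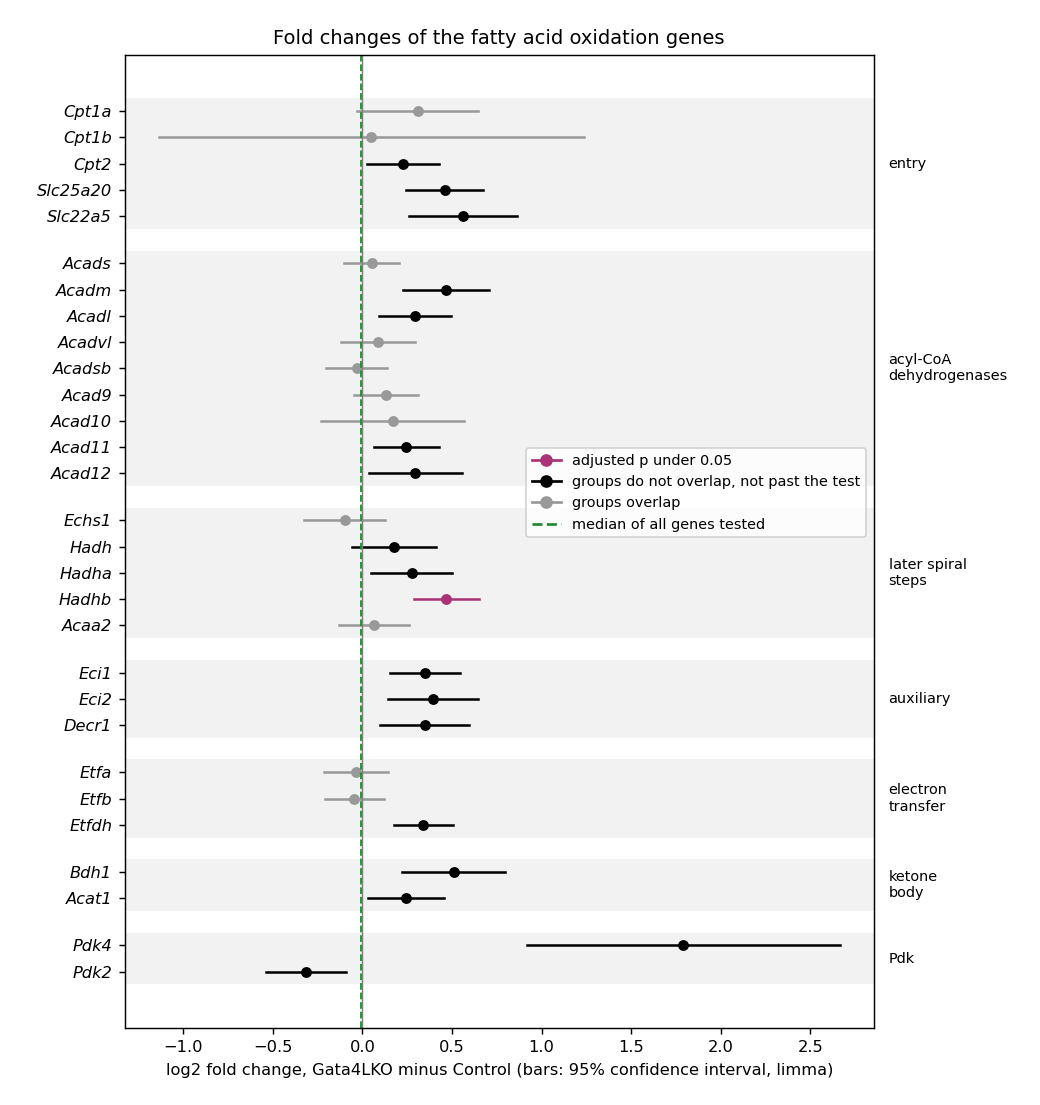
Log2 fold changes of the 29 genes, libraries labelled Gata4LKO minus Control, with 95% confidence intervals from limma. Hadhb alone passed the adjusted threshold, Pdk4 stands at 1.79 with an interval from 0.92 to 2.66, and Etfa, Etfb, Acads, Acadvl and Acaa2 lie near the median of all genes (-0.01).

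The 2 ketone body enzymes among the members did not pass by limma or edgeR, had unadjusted limma p-values of 0.00373 (Bdh1) and 0.0308 (Acat1), and in both the libraries labelled Gata4LKO lay above Control without overlap, as in 15.0% of all genes. Bdh1, the mitochondrial dehydrogenase that makes beta-hydroxybutyrate from acetoacetate, had 7251, 5482 and 5884 counts in Control and 9227, 9372 and 7787 in the libraries labelled Gata4LKO. Its means were 6206 ± 927 and 8796 ± 876 (SD, n = 3), a log2 fold change of 0.51 (SE 0.12, limma adjusted p = 0.0744). Acat1, the mitochondrial acetoacetyl-CoA thiolase, had 15201, 12879 and 13430 against 17232, 16479 and 15304, where Control replicate 1 lay just under the lowest of the other group (0.24, SE 0.09, adjusted p = 0.176). Of 8 further ketone body genes tested, 1 was lower and 0 were higher by limma and edgeR, DESeq2 called 4 higher and 1 lower, and 5 were higher and 1 lower at an unadjusted limma p under 0.05 (median log2 fold change 0.37). The gene called lower by limma, Bdh2, a cytosolic hydroxybutyrate dehydrogenase, fell from 373, 464 and 377 to 156, 223 and 219 counts (log2 fold change -1.03, SE 0.17, adjusted p = 0.0312).

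The kinases Pdk4 and Pdk2 phosphorylate and shut down pyruvate dehydrogenase, and in fasting they shift fuel use from glucose towards fat. Pdk4 (chromosome 6, 5483351 to 5496309, minus strand) had 60.7, 99.7 and 71.9 counts in Control and 488, 186 and 205 in the libraries labelled Gata4LKO. All 3 of the latter were higher, and replicate 1 stood well above the other two. The log2 fold change was 1.79 (SE 0.37, limma adjusted p = 0.0585, DESeq2 adjusted p = 3.11e-05). It was 1.35 without Gata4LKO replicate 1, and 1.03 with the marker score as covariate, where the adjusted p was 0.590. Since that score itself separated the groups, the fit with it cannot tell score and group apart. The adipocyte-marked gene Cfd also had its highest count, 3207, in Gata4LKO replicate 1. In that library the adipocyte markers Adipoq, Plin1 and Cidea had 0 counts. A further one, Fabp4, had 169 there, beside 166 and 158 in Gata4LKO replicates 2 and 3. Its Control counts were 119, 95.6 and 106, without overlap (log2 fold change 0.62, limma adjusted p = 0.0682). The part of other cells in the Pdk4 difference was not tested. Pdk4 passed by limma without a filter on low counts (0.0465), with equal library sums (0.0445) and without Control replicate 2 (0.0473).

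Pdk2 was the member with the lowest log2 fold change. It had 6315, 6944 and 7392 counts in Control and 6146, 5391 and 5082 in the other group, which did not overlap (log2 fold change -0.31, SE 0.10, limma adjusted p = 0.116). The log2 ratio of Pdk4 to Pdk2 was -6.68, -6.11 and -6.66 in Control and -3.65, -4.85 and -4.63 in the other group, a difference of 2.11 (exact permutation p = 0.1). Pdk2 had the higher level in both groups. Per kilobase of exon it had 2176 ± 171 in Control against 22.1 ± 5.72 for Pdk4, and 1751 ± 173 against 83.4 ± 48.2 in the libraries labelled Gata4LKO.

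**Figure D3:**
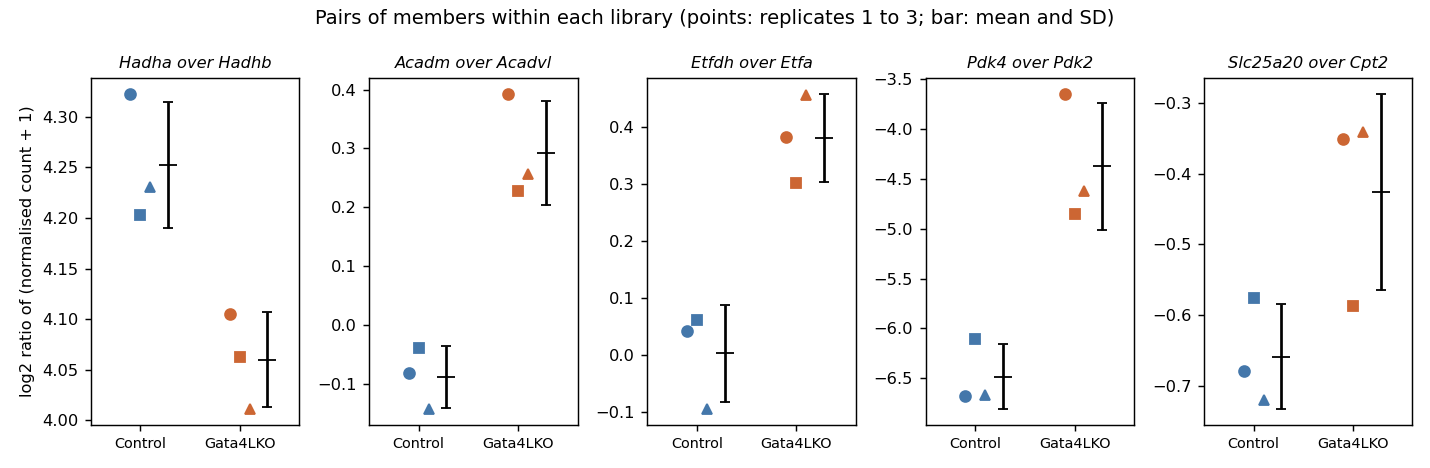
Log2 ratio of (normalised count + 1) for 5 pairs of genes within each library; points are replicates 1 to 3 and the bar is the mean and SD of 3 libraries, on separate vertical scales. The groups do not overlap for Hadha over Hadhb, Acadm over Acadvl, Etfdh over Etfa and Pdk4 over Pdk2, and overlap for Slc25a20 over Cpt2.

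Levels spanned a wide range within the pathway. Per kilobase of exon in Control, Acaa2 (17733 ± 528) was followed by Acadvl (5176 ± 429), Etfa (4597 ± 329), Acadl (3899 ± 324) and Acat1 (3682 ± 323), of which Acadl and Acat1 differed by less than the SD of either, while the gaps from Acadvl to Etfa and from Etfa to Acadl were wider than the SDs of those genes. The lowest were Acad9 (106 ± 3.84), Acad12 (48.5 ± 4.12), Pdk4 (22.1 ± 5.72) and Cpt1b (3.52 ± 1.01). Acadm was in place 6 in Control and 4 in the libraries labelled Gata4LKO, and Pdk2 in places 11 and 16. The length used moves these levels. By the length of the principal transcript, chosen as an alternative after seeing the data, Echs1 stood at 4758 in Control in place of 894, and Hadh came second with 7038.

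Promoter sequence was searched in the RefSeq windows (GRCm38.p6) of 250 bases before to 50 bases after the start site, which were available for 24 of the 29 members. The DR1 element, to which PPAR-RXR heterodimers bind, was searched on both strands as 2 direct repeats of AGGTCA with 1 base between them, allowing at most 2 mismatches in the 12 fixed bases. It matched in 3 members (12.5%), against 3.81% of 27025 promoters of all genes. The GATA element was searched as AGATAA or TGATAA on both strands and matched in 4 members (16.7%), Acadvl, Eci2, Bdh1 and Pdk4, against 19.0% of all promoters. The start site of the Eci2 window lies 32952 bases from the GENCODE start of that gene. For members the window nearest the GENCODE start was used, and for all genes the first listed. The 3 DR1 matches are shown with their flanks because the members' best known regulator binds such an element, followed by the GATA match of Pdk4, the member with the largest difference; these were chosen after the values had been seen. Capitals mark the match, and each is read on the strand of its gene.
Slc25a20, chr9:108662134-108662162: ctgaatgtAGGTGAAAGGTCGgcggagcc
Echs1, chr7:140116478-140116518: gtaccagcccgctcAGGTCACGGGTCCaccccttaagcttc
Etfa, chr9:55512294-55512334: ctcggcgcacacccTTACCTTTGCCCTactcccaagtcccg
Pdk4, chr6:5496317-5496356: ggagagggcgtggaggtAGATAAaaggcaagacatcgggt
Each DR1 match has 2 mismatches, and that of Etfa lies on the opposite strand. Relative to the RefSeq start site, the DR1 matches begin at 6 (Slc25a20), -83 (Echs1) and -77 (Etfa), so that of Slc25a20 lies after it. Of the genes that hold them, Slc25a20 had groups that did not overlap, and the groups of Echs1 and Etfa overlapped. A match is a stretch of letters and not a binding site, and these windows leave out more distant elements.

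Neighbouring pathways were read in the same fit from lists that were drawn up with earlier results of these data known. Of 21 PPARA targets outside mitochondrial oxidation, 7 were higher and 0 lower by limma (17 and 0 at an unadjusted p under 0.05, 8 and 0 by edgeR, 14 and 0 by DESeq2), and their median difference on the log2 scale was 0.99, beside 0.24 for the members. Those of smallest p were Ehhadh, a peroxisomal bifunctional enzyme, at 0.99, Acsl1, an acyl-CoA synthetase, at 1.05, Acaa1b, a peroxisomal thiolase, at 1.09, and Angptl4, an inhibitor of lipoprotein lipase, at 0.77 (limma adjusted p from 0.0169 to 0.0373). Of 16 citric acid cycle genes 0 passed by limma, edgeR or DESeq2, and 0 had an unadjusted limma p under 0.05 (median -0.02, groups not overlapping in 2). Of 14 genes for import, porins and genome upkeep 0 passed by any of these tools, with 1 higher and 1 lower at an unadjusted limma p under 0.05 (median -0.03). In the citric acid cycle list the smallest p-values belonged to Suclg2 and Suclg1, at log2 fold changes of 0.17 and 0.13 (adjusted p = 0.248 and 0.383). In the import list they belonged to Tomm20 and Timm44, at 0.27 and -0.19 (0.105 and 0.167).

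Regulators of the pathway gave 0 calls among 14 genes by limma, edgeR or DESeq2, with 1 higher and 1 lower at an unadjusted limma p under 0.05 (median -0.11). Ppara itself had 6789, 8607 and 7084 counts in Control and 10189, 8637 and 9667 in the libraries labelled Gata4LKO, so the highest Control library lay just under the lowest of the others (log2 fold change 0.35, SE 0.11, limma adjusted p = 0.124), and the transcription factor gene Klf15 had -0.37 (0.138). Of 9 genes that set malonyl-CoA or form AMP-activated kinase, 0 passed by limma or edgeR, while DESeq2 called 1 higher and 2 lower, and 1 was higher and 3 lower at an unadjusted limma p under 0.05 (median -0.18). The smallest p-values were those of the kinase subunit gene Prkab1 (-0.46, adjusted p = 0.0533) and of its paralog Prkab2 (0.75, 0.0744). Of 12 genes of the pyruvate dehydrogenase complex, its other kinases and phosphatases and the pyruvate carrier, 0 passed by limma, edgeR or DESeq2 and 0 had an unadjusted limma p under 0.05 (median -0.0006), led by Pdha1 and Pdp1 at 0.28 and 0.66 (0.247 and 0.277).

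**Figure D4:**
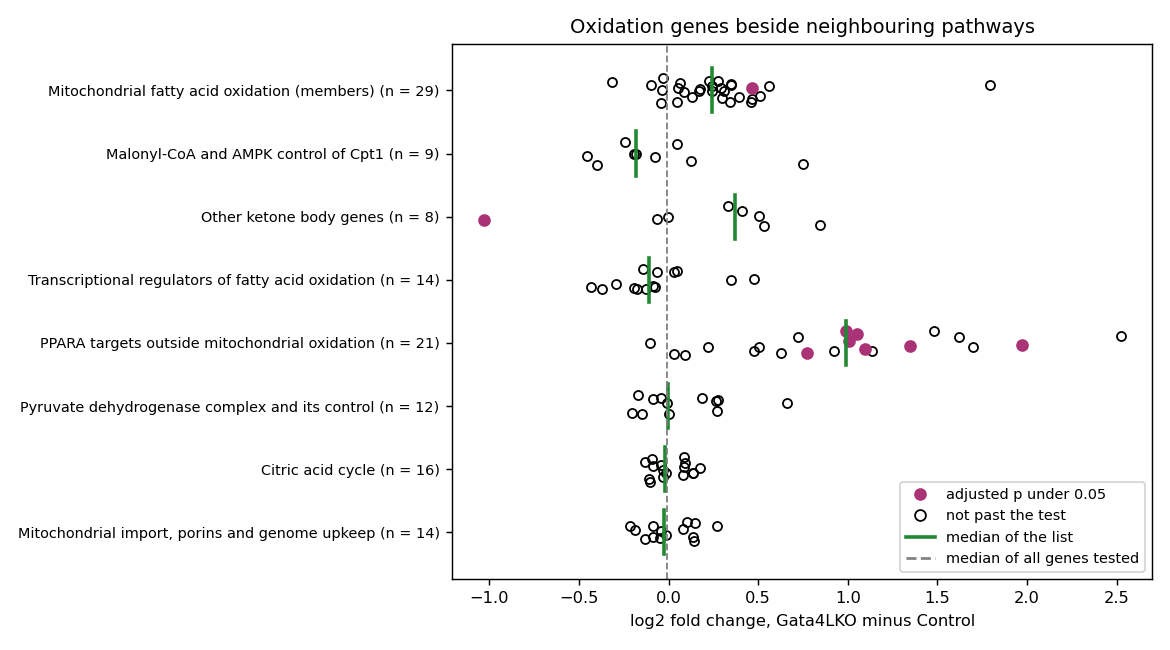
Log2 fold change of each gene (points), libraries labelled Gata4LKO minus Control, for the 29 oxidation genes and 7 neighbouring lists; filled points passed the adjusted threshold and the vertical bar is the median of a list. The PPARA target list has its median at 0.99, the oxidation genes at 0.24, and the citric acid cycle and import lists near the median of all genes.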

How the data were processed

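Liver mRNA of 6 mice was sequenced from stranded libraries (labels' protocols). Tools named in the submitters' processing notes are FastQC, STAR 2.6.0c and DESeq2, with mm10; no counter, strand setting or annotation is given in the sources used here. The authors deposited 1 signal value per gene and library, a read count divided by a factor of its library. All values (100.0%, within 0.1 of a whole number) were multiples of the smallest step of their column, so whole reads were recovered; the step of Gata4LKO replicate 2 (1.00) is too near 1 for this to show that its column was scaled. The authors' deposited table gives a log2 fold change and an adjusted p-value per gene. Replicates follow accession order, and p-values measure the spread between these libraries. None of the 15 library pairs agreed within counting noise (chi-square per degree of freedom at least 28.2).

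The members, the lists and the marker score were chosen with earlier results of these data known. The main test was limma 3.58.1 (R 4.3.3) with an intensity trend on log2(value + 1), which understates changes of low genes, for genes with a mean of at least 10, with Benjamini-Hochberg adjustment at 0.05. edgeR 4.0.16 and DESeq2 1.42.0 ran on the recovered reads. The limma fit was tested on simulated data. All members are described; of each other list the text names the called genes (at most 4, by p) or, with none, the 2 of smallest p. Positions, exon lengths and overlaps come from GENCODE M21 (mm10, 24480 identifiers found) and promoters from RefSeq. Copies were transcripts with at least 200 aligned bases at 95% identity. The gene pairs, the principal transcript length and the printed sequences were chosen after the values had been seen.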

Additional observations from a re-analysis of the deposited data

How the results depend on the processing

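Tried were 18 alternatives: other pseudocounts (0.5, 5), filters (none, or 50 as the lowest mean) and scalings (equal sums, quantile, TMM), limma without its trend or made robust, edgeR, DESeq2, the marker score, and each library left out. The count of members called higher, 1, was 2 without a filter, 6 with equal sums, 4 with quantile normalisation, 0 without the trend (14 higher and 1 lower at an unadjusted p under 0.05), 2 with robust variance, 12 with DESeq2 and 0 with the marker score. It was 0 to 2 when any single library was left out, where 27 to 792 genes in all passed. Without the trend 25 genes in all passed, beside 296 in the main test. The share of all genes at an unadjusted p under 0.05 was not counted there. In these 18 fits 0 members were called lower by limma, edgeR or DESeq2, and 1, Pdk2, was lower at an unadjusted limma p under 0.05 with all libraries and no alternative applied. The members' median log2 fold change, 0.24, was 0.29 with equal sums and 0.23 to 0.30 when a library was left out. Of 521 values of single members, 478 kept their direction and side of the threshold, 23 newly passed and 7, all of Hadhb, no longer passed.

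The sign changed in 13 values, in 5 members that did not pass in any fit. With equal sums Acadsb, Etfa and Etfb stood at 0.016, 0.011 and 0.0027. With quantile normalisation Cpt1b stood at -0.10 and Acadsb at 0.0072. With the marker score Acadsb, Acad10, Etfa and Etfb stood at 0.033, -0.23, 0.11 and 0.052. With a library left out, Cpt1b ranged from -0.46 to 0.31, Etfa from -0.094 to 0.0080 and Acadsb from -0.067 to 0.027. The cause was not tested. Levels per kilobase moved beyond their spread in 23 members when the principal transcript length was used. No paired analysis was possible because the replicate numbers follow accession order and pair no mice.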

Other observations

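A few genes of the neighbouring lists, picked after their values had been seen, varied widely between libraries of one group. Lpin1, a phosphatidate phosphatase and coactivator of fatty acid oxidation, had 3047, 5311 and 12521 normalised counts in Control and 13180, 1616 and 3870 in the libraries labelled Gata4LKO. Acacb, which makes the malonyl-CoA that inhibits Cpt1a, had 1298, 1087 and 1733 in Control and 3164, 439.7 and 1179 in the other group. In both genes Gata4LKO replicate 1, the library with the highest Pdk4 and Cpt1a, was the highest of the 6. The PPARA target Cyp4a14 had 4521, 1520 and 507 counts in Control and 11189, 3491 and 16979 in the libraries labelled Gata4LKO, with overlap between the groups and a log2 fold change of 2.52 (SE 0.83, limma adjusted p = 0.134). The immediate early gene Nr4a1 had 444 counts in Control replicate 2 and 16.8 to 74.7 in the other libraries.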
